A study of Mus musculus with 12 samples.

Results

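The 10 genes described here code for cell adhesion proteins of the immunoglobulin superfamily, and they were chosen by name from the 55359 genes in the count files. They are the 5 IgLON genes Lsamp, Ntm, Opcml, Negr1 and Iglon5, the Down syndrome cell adhesion genes Dscam and Dscaml1, the sidekick genes Sdk1 and Sdk2, and Kirrel3 of the Kirrel family. All 10 symbols matched 1 Ensembl gene each, and all 10 passed the filter on low counts that left 17501 genes for testing.

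RNA was sequenced in bulk from the ventroposterior medial nucleus (VPM) of mouse thalamus at postnatal day 0. The 4 embWPC ALBSF libraries came from pups given the treatment that the labels call embWPC, a name they do not spell out, and held the VPM territory that receives upper-lip input (ALBSF). The 4 Ctrl PMBSF libraries came from control pups and held the territory that receives whisker pad input (PMBSF), and the 4 Ctrl ALBSF libraries came from control pups and held the upper-lip territory. No whisker pad territory of embWPC pups was analysed here. Tissue of 5 brains was microdissected from 300 µm slices and pooled for each library, so the spread between libraries is a spread between pools. The labels give no strain, sex or litter.

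Adhesion proteins of this superfamily sit on the surface of neurons and bind copies of themselves or relatives on other cells, and through this they take part in axon outgrowth, in the choice of synaptic partners and in the spacing of neurites. IgLONs are held in the membrane by a GPI anchor, a lipid tail, and pair with themselves and with each other. Dscams, sidekicks and Kirrel proteins cross the membrane and bind mainly their own kind. In mouse retina, Dscam and Dscaml1 keep neurites and cell bodies of like neurons apart, and sidekicks help sort synapses into layers.

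Depth was 31712820 to 33702453 counts per library in embWPC ALBSF, 31921767 to 34512840 in Ctrl PMBSF, and 28457046 to 31850727 in Ctrl ALBSF. Levels are given as CPM, that is counts scaled to a common library total after TMM adjustment. Slc17a6, which loads glutamate into vesicles of relay neurons, averaged 388 ± 29.5 CPM in embWPC ALBSF, 379.5 ± 23.1 CPM in Ctrl PMBSF and 370.0 ± 23.5 CPM in Ctrl ALBSF (SD, n = 4 each). Other relay markers differed between the control territories in the edgeR fit. Tcf7l2, a transcription factor of thalamic neurons, averaged 681 ± 108 CPM in Ctrl PMBSF and 1154 ± 198 CPM in Ctrl ALBSF (log2 fold change -0.76 ± 0.16, adjusted p = 0.0301). The nuclear receptor Rora averaged 651 ± 41.1 CPM in Ctrl PMBSF and 498 ± 9.61 CPM in Ctrl ALBSF (0.39 ± 0.09, adjusted p = 0.0436). All 10 relay neuron markers were detected, and their summed level was 2550 to 2920 CPM in embWPC ALBSF, 2380 to 2680 CPM in Ctrl PMBSF and 2530 to 2940 CPM in Ctrl ALBSF. None of the markers listed for 10 cell classes was at 0 in every library, and transcripts of classes other than relay neurons were thus detected. In bulk tissue, fewer cells of a type and less RNA per cell cannot be told apart.

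The members spanned a wide range of levels, with Ntm far above the rest and the sidekicks and Dscaml1 near the detection floor. To compare genes, each level was divided by the length of the gene's exons and averaged over the 12 libraries. On this scale Ntm had 106 CPM per kb, higher than 98.4% of the tested genes. Lsamp followed with 10.8 and Negr1 with 10.8 CPM per kb, and the libraries of these neighbours overlapped in all 3 groups. Kirrel3 had 4.02, Dscam 3.55 and Opcml 3.41 CPM per kb. Kirrel3 and Dscam overlapped in 2 of the 3 groups, as did Dscam and Opcml. Iglon5 had 1.45 CPM per kb, below the median tested gene, with 46.2% of tested genes under it. Sdk2 had 0.187, Dscaml1 0.123 and Sdk1 0.110 CPM per kb, and 12.2%, 7.27% and 6.12% of tested genes lay under them. Dscaml1 and Sdk1 overlapped in all 3 groups, Sdk2 and Dscaml1 in 1 group. The level of Ntm per kb was 961 times that of Sdk1, and Ntm made up 80.1% of the summed IgLON level per kb.

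**Figure D1:**
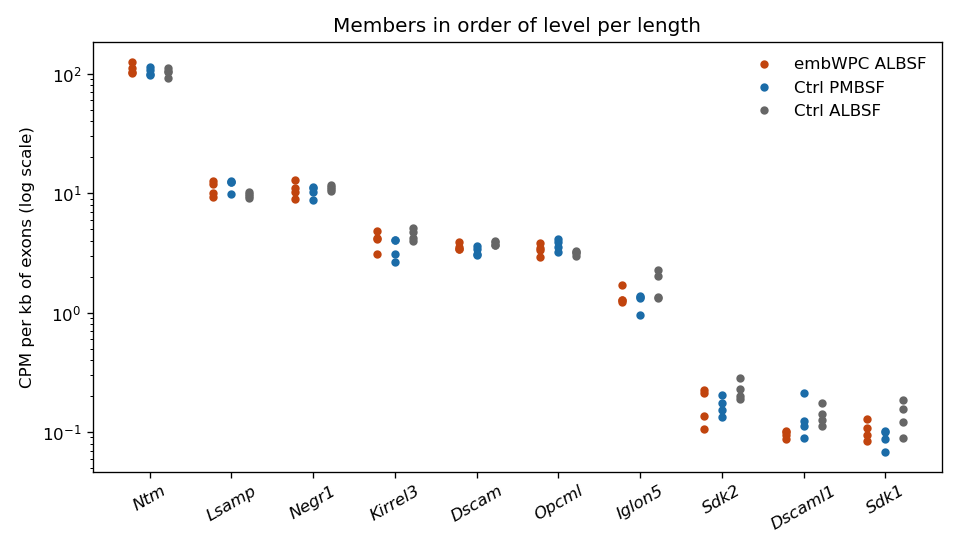
Level of each adhesion gene in CPM per kb of exons (log axis), with 1 point per library and the groups embWPC ALBSF, Ctrl PMBSF and Ctrl ALBSF side by side. Ntm lies near 106 CPM per kb, and Sdk2, Dscaml1 and Sdk1 lie below 0.3 CPM per kb in every library.

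Most members are very long genes. In GRCm39, Opcml spans 1135 kb, Sdk1 974 kb, Ntm 968 kb, Negr1 755 kb, Lsamp 649 kb, Dscam 580 kb, Kirrel3 554 kb, Dscaml1 327 kb and Sdk2 291 kb. Iglon5 is the exception with 17.2 kb. So 9 of the 10 members were longer than 290 kb, against 3.35% of the tested genes, whose median span was 22 kb. Ntm (chr9:28906045-29874437, minus strand) and Opcml (chr9:27702071-28837232, plus strand) are neighbours that point towards each other with 68.8 kb between them. Their levels were far apart even so. Dscaml1 (chr9:45337926-45665010) and Kirrel3 (chr9:34397190-34951024) lie elsewhere on chromosome 9, while Lsamp (chr16:41353220-42002042) and Dscam (chr16:96392040-96972145) share chromosome 16.

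Ntm codes for neurotrimin, an IgLON first described in rat brain, where the thalamus is among the regions that express it. It had 829.8, 1015, 814 and 908 CPM in embWPC ALBSF libraries 1 to 4, against 911, 874, 805 and 783 CPM in Ctrl PMBSF and 910.1, 842, 854 and 747 CPM in Ctrl ALBSF. The 3 groups overlapped, and the highest library was embWPC ALBSF 2. Between control territories the log2 fold change of Ctrl PMBSF over Ctrl ALBSF was 0.01 ± 0.10 (SE, n = 4 per group), with a 95% interval of -0.20 to 0.22 and an adjusted p of 0.989 by edgeR. This interval leaves out changes beyond about 0.22 on the log2 scale in either direction.

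Lsamp codes for the limbic system-associated membrane protein, which guides axons of limbic circuits. It had 131, 110.0, 139 and 103 CPM in embWPC ALBSF libraries 1 to 4, against 109, 135, 138 and 136 CPM in Ctrl PMBSF and 113, 100.1, 108 and 103 CPM in Ctrl ALBSF. Of the Ctrl PMBSF libraries, 2, 3 and 4 lay above every Ctrl ALBSF library, while library 1 lay within their range. The log2 fold change of Ctrl PMBSF over Ctrl ALBSF was 0.29 ± 0.10 (SE, n = 4 per group; edgeR adjusted p = 0.239), and it did not pass the test. On plain library totals, without TMM, the libraries of these groups did not overlap, but the gap was narrow. It lay between 116.8 CPM in Ctrl PMBSF 1 and 116.1 CPM in Ctrl ALBSF 1. The share of all tested genes without overlap on plain totals was not computed.

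Negr1, a neuronal growth regulator among the IgLONs, had 116, 108, 136 and 93.5 CPM in embWPC ALBSF libraries 1 to 4, against 92.9, 117, 119 and 108 CPM in Ctrl PMBSF and 113, 110.2, 124 and 119 CPM in Ctrl ALBSF. The groups overlapped, and the embWPC ALBSF libraries held both the highest and the second lowest value of the 12. In Ctrl PMBSF over Ctrl ALBSF the log2 fold change was -0.10 ± 0.11 (SE, n = 4 per group; edgeR adjusted p = 0.792). The antisense RNA 4930570G19Rik shares 22 exon bases with Negr1 and had 7.22% as many counts, and whether the authors counted by strand is not given in the sources used here.

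Opcml, an adhesion protein named for opioid binding, had 44.2, 50.03, 51.9 and 58.0 CPM in embWPC ALBSF libraries 1 to 4, against 61.6, 48.6, 58.8 and 52.8 CPM in Ctrl PMBSF and 49.2, 44.7, 47.9 and 48.4 CPM in Ctrl ALBSF. The Ctrl ALBSF libraries were the tightest of the 3 groups, with an SD of 1.95 CPM, and only Ctrl PMBSF library 2 lay within their range. Ctrl PMBSF over Ctrl ALBSF gave a log2 fold change of 0.22 ± 0.09 (SE, n = 4 per group; edgeR adjusted p = 0.322).

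Iglon5, the target of autoantibodies in a human sleep and movement disease, was the lowest IgLON. It had 3.32, 3.33, 3.21 and 4.45 CPM in embWPC ALBSF libraries 1 to 4, against 2.51, 3.62, 3.47 and 3.52 CPM in Ctrl PMBSF and 3.57, 5.91, 5.29 and 3.50 CPM in Ctrl ALBSF. Ctrl ALBSF libraries 2 and 3 stood above all other libraries, while libraries 1 and 4 lay among the Ctrl PMBSF values. The log2 fold change of Ctrl PMBSF over Ctrl ALBSF was -0.48 ± 0.20 (SE, n = 4 per group; edgeR adjusted p = 0.338). The counts behind these levels ran from 93 to 170.

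Dscam, a receptor for its own kind that also takes part in netrin signalling, had 30.9, 30.9, 35.2 and 31.9 CPM in embWPC ALBSF libraries 1 to 4, against 27.1, 30.4, 32.3 and 27.7 CPM in Ctrl PMBSF and 32.8, 33.3, 35.7 and 35.0 CPM in Ctrl ALBSF. Every Ctrl PMBSF library lay below every Ctrl ALBSF library. Dscam was the 1 member of 10 whose libraries did not overlap between these groups, and 8.28% of the tested genes did not overlap in either direction. The gap between these groups was 32.3 against 32.8 CPM, and on plain library totals they overlapped. The log2 fold change of Ctrl PMBSF over Ctrl ALBSF was -0.22 ± 0.08 (SE, n = 4 per group; edgeR adjusted p = 0.220), the smallest adjusted p of the 10 members.

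Dscaml1, the closest relative of Dscam, had 0.772, 0.840, 0.894 and 0.917 CPM in embWPC ALBSF libraries 1 to 4, against 0.999, 0.798, 1.90 and 1.10 CPM in Ctrl PMBSF and 1.26, 1.13, 1.56 and 0.992 CPM in Ctrl ALBSF. All 4 embWPC ALBSF libraries lay below all 4 Ctrl ALBSF libraries. The counts behind these values were 23 to 68 per library, and on plain library totals the same groups overlapped. Between control territories the log2 fold change of Ctrl PMBSF over Ctrl ALBSF was -0.04 ± 0.27 (SE, n = 4 per group; edgeR adjusted p = 0.982). Its 95% interval of -0.61 to 0.54 is wide.

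The sidekicks were scarce as well. Sdk1 had 1.21, 1.42, 0.927 and 1.05 CPM in embWPC ALBSF libraries 1 to 4, against 0.972, 1.14, 1.12 and 0.754 CPM in Ctrl PMBSF and 1.36, 2.04, 1.73 and 0.992 CPM in Ctrl ALBSF. Sdk2 had 1.64, 3.26, 2.12 and 3.46 CPM in embWPC ALBSF libraries 1 to 4, against 2.73, 2.09, 3.13 and 2.36 CPM in Ctrl PMBSF and 3.11, 3.52, 4.36 and 2.94 CPM in Ctrl ALBSF. For both genes the highest library of the 12 was a Ctrl ALBSF library, and the groups overlapped. Ctrl PMBSF over Ctrl ALBSF gave a log2 fold change of -0.61 ± 0.26 for Sdk1 (SE, n = 4 per group; edgeR adjusted p = 0.339). For Sdk2 it was -0.43 ± 0.23 (edgeR adjusted p = 0.510). Sdk1 rested on 24 to 58 counts and Sdk2 on 49 to 132 counts per library.

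Kirrel3, which in mouse helps sort olfactory axons and form hippocampal mossy fibre synapses, had 44.1, 51.2, 43.7 and 32.8 CPM in embWPC ALBSF libraries 1 to 4, against 27.8, 32.7, 42.4 and 42.7 CPM in Ctrl PMBSF and 44.1, 42.2, 49.8 and 54.0 CPM in Ctrl ALBSF. Ctrl PMBSF libraries 1 and 2 lay below every Ctrl ALBSF library, and libraries 3 and 4 lay just above the lowest of them. The mean was 36.4 ± 7.37 CPM in Ctrl PMBSF and 47.5 ± 5.40 CPM in Ctrl ALBSF (SD, n = 4 each), a ratio of 0.766. The log2 fold change of Ctrl PMBSF over Ctrl ALBSF was -0.39 ± 0.15 (SE, edgeR adjusted p = 0.292) in the fit of all 12 libraries.

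**Figure D2:**
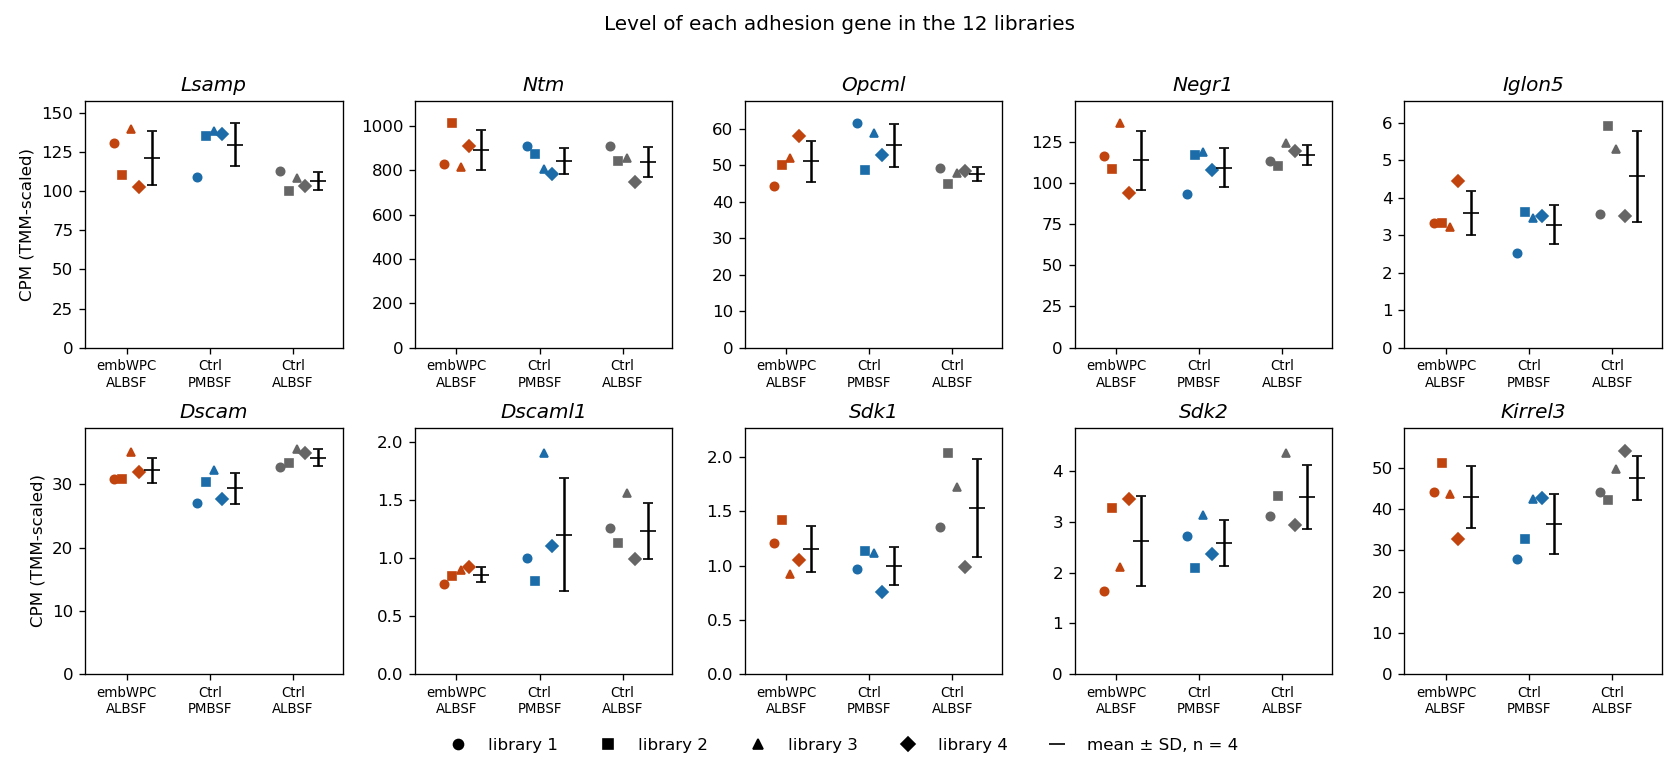
TMM-scaled CPM of each adhesion gene in each library, with embWPC ALBSF, Ctrl PMBSF and Ctrl ALBSF from left to right, marker shape for the library number, and bars for the mean ± SD (n = 4). The 4 Ctrl PMBSF libraries of Dscam lie below the 4 Ctrl ALBSF libraries (27.1 to 32.3 against 32.8 to 35.7 CPM), and the 4 embWPC ALBSF libraries of Dscaml1 lie below the 4 Ctrl ALBSF libraries (0.772 to 0.917 against 0.992 to 1.56 CPM).

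The first comparison set the whisker pad territory of control pups beside their upper-lip territory. None of the 10 members passed edgeR's test at an adjusted p under 0.05 in the fit of all 12 libraries, where 1.62% of the tested genes did. DESeq2 and limma voom called 0 of the 10 as well. At an unadjusted p under 0.05 there were 6 members, Lsamp, Opcml, Iglon5, Dscam, Sdk1 and Kirrel3, against 11.8% of the tested genes. Their unadjusted p values ran from 0.0118 to 0.0303. Of the 10 fold changes, 3 were positive (Lsamp, Opcml and Ntm) and 7 negative. On plain library totals the means of 5 were higher in Ctrl PMBSF and of 5 lower, since Negr1 (113.4 CPM in Ctrl PMBSF and 113.2 CPM in Ctrl ALBSF) and Dscaml1 (1.27 and 1.19 CPM in the same order) changed sides. The median log2 fold change was -0.16 over the members and 0.00 over all tested genes.

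**Figure D3:**
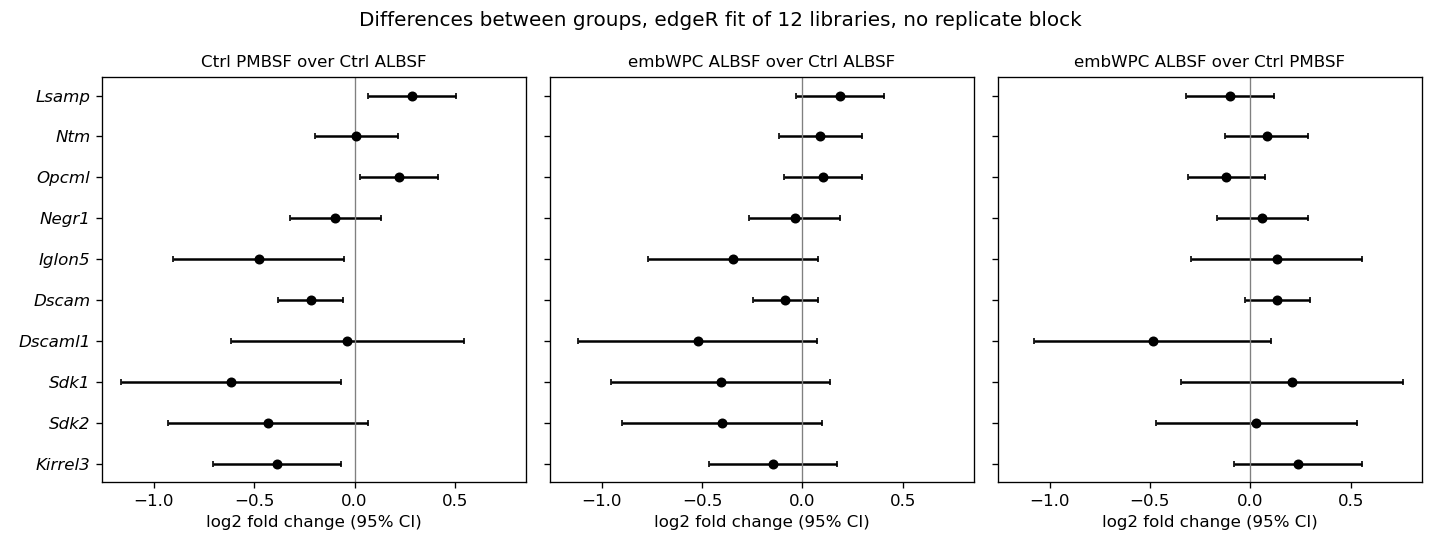
Log2 fold change of each adhesion gene with its 95% confidence interval from the edgeR fit of 12 libraries, for Ctrl PMBSF over Ctrl ALBSF, embWPC ALBSF over Ctrl ALBSF and embWPC ALBSF over Ctrl PMBSF. In the first panel the intervals of Lsamp, Opcml, Iglon5, Dscam, Sdk1 and Kirrel3 leave out 0 before adjustment over genes, and in the other panels every interval holds 0.

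Control libraries that carry the same number deviated together from their group means, with correlations across genes of 0.39, 0.20, 0.33 and 0.40 for numbers 1 to 4, so the comparison of territories was also made within numbers. With the number as a block, 1 of the 10 members was called, Kirrel3, and 5.04% of 17000 tested genes were called, of which the genes lower in Ctrl PMBSF made up 2.61% of those tested. Within pairs Kirrel3 fell, with a log2 fold change of -0.40 ± 0.07 (SE, 4 pairs; edgeR adjusted p = 0.00865). It was lower in Ctrl PMBSF in 4 of 4 pairs, with log2 CPM differences of -0.66, -0.37, -0.23 and -0.34 for numbers 1 to 4. With the same block it was also called by DESeq2 (adjusted p = 0.00171) and by limma voom (adjusted p = 0.0107). Without both control libraries numbered 4, edgeR gave -0.43 at an adjusted p of 0.0563, so the call was lost in the 3 remaining pairs. Without number 1, 2 or 3 the adjusted p was 0.0108, 0.0270 or 0.0257. The difference therefore passed the test within numbers and did not pass it without them.

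The other members stayed above an adjusted p of 0.05 with edgeR's blocked fit. Opcml was higher in Ctrl PMBSF in 4 of 4 pairs, with a log2 fold change of 0.22 ± 0.06 (SE, n = 4 pairs; edgeR adjusted p = 0.0646). Lsamp was higher in 3 of 4 pairs, with 0.28 ± 0.08 (edgeR adjusted p = 0.0695), and the exception was number 1. Lsamp had an adjusted p of 0.0468 with DESeq2 and the block, and of 0.0693 with limma voom and the block. With edgeR and the block, leaving out both control libraries of numbers 1 to 4 in turn gave adjusted p values of 0.00467, 0.236, 0.207 and 0.347, so it was called without the pair that runs the other way and not otherwise. Dscam was lower in 4 of 4 pairs, with -0.22 ± 0.06 (edgeR adjusted p = 0.0731). Sdk1 and Sdk2 were also lower in 4 of 4 pairs, with adjusted p values of 0.166 and 0.161. Iglon5 was lower in 3 of 4 pairs (edgeR adjusted p = 0.124). Negr1, Dscaml1 and Ntm had adjusted p values of 0.459, 0.903 and 0.972.

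**Figure D4:**
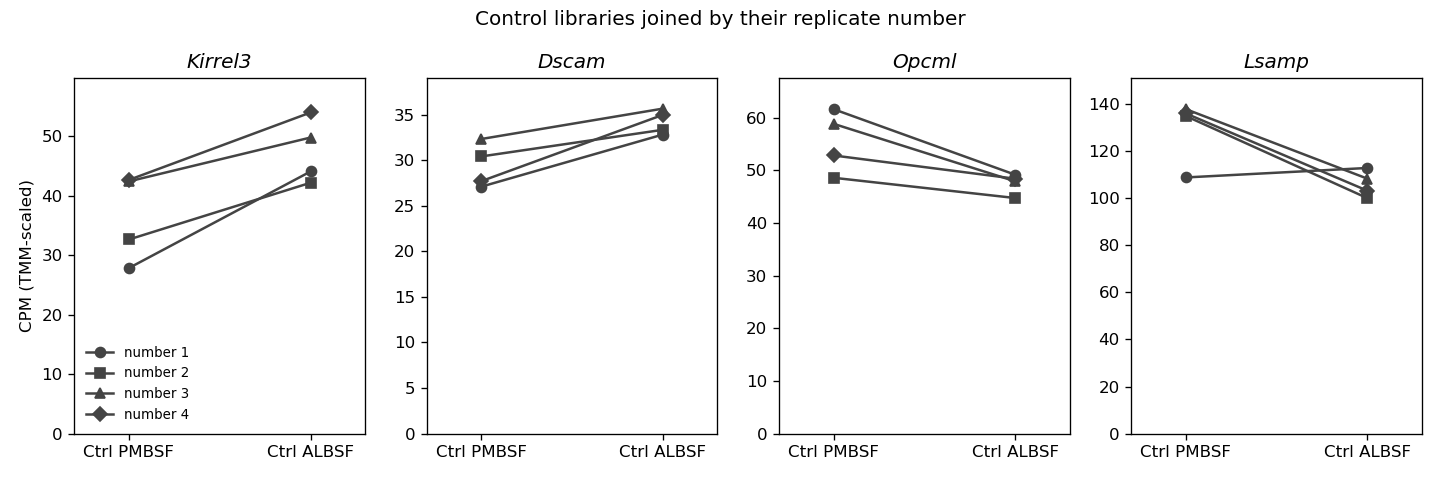
TMM-scaled CPM of Kirrel3, Dscam, Opcml and Lsamp in the control libraries, with a line joining the Ctrl PMBSF and Ctrl ALBSF libraries of the same number. All 4 lines of Kirrel3 and of Dscam are lower at Ctrl PMBSF, all 4 of Opcml are higher there, and the Lsamp line of number 1 runs against the other 3.

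Markers of neighbouring tissue moved with Kirrel3 across the control libraries. The list for neurons of hippocampus, cortex and habenula had 8 markers, of which 6 were tested and 0 called between the control territories without the block. Its summed level was 12.8, 14.5, 39.7 and 32.7 CPM in Ctrl PMBSF libraries 1 to 4, against 35.5, 22.8, 45.1 and 55.3 CPM in Ctrl ALBSF, and 18.1 to 26.8 CPM in embWPC ALBSF. The libraries with the lowest Kirrel3, Ctrl PMBSF 1 and 2, had the lowest sums, and Ctrl ALBSF 4 had the highest value of both. Most of the sum was Slc17a7, a vesicular glutamate transporter of cortical neurons that some thalamic neurons also make. It had 7.67 to 27.6 CPM in Ctrl PMBSF and 16.2 to 49.9 CPM in Ctrl ALBSF, and with the block it was called lower in Ctrl PMBSF (log2 fold change -1.02 ± 0.15, edgeR adjusted p = 0.00308). Neurod6, a transcription factor of cortical and hippocampal neurons, averaged 2.55 ± 2.71 CPM in Ctrl PMBSF and 2.27 ± 0.58 CPM in Ctrl ALBSF (SD, n = 4 each). Other marker lists also held calls in the blocked fit. Of 10 relay neuron markers, Tcf7l2 was called lower in Ctrl PMBSF (log2 fold change -0.76 ± 0.14, edgeR adjusted p = 0.00869). Rora of the same list was called higher there (0.39 ± 0.08, edgeR adjusted p = 0.0226). Of 8 oligodendrocyte lineage markers, 4 were lower in Ctrl PMBSF (Olig2, Sox10, Pdgfra and Cspg4), and the summed level was 344 to 375 CPM in Ctrl PMBSF and 387 to 502 CPM in Ctrl ALBSF. Of 10 meningeal fibroblast markers, 3 were higher in Ctrl PMBSF (Lum, Islr and Ogn), with sums of 17.0 to 102 CPM in Ctrl PMBSF and 20.8 to 22.1 CPM in Ctrl ALBSF. The vascular marker Rgs5, the glial marker Sox9 and the globin gene Hbb-bt were each the 1 gene of their list called, all lower in Ctrl PMBSF. The part of any of these cells in the Kirrel3 difference was not tested.

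The second comparison set embWPC pups beside control pups within the upper-lip territory. None of the 10 members passed edgeR's test, and 0 reached an unadjusted p under 0.05, against 0.0629% and 9.22% of the tested genes. DESeq2 and limma voom also called 0 members. The largest difference was that of Dscaml1, at 0.856 ± 0.065 CPM in embWPC ALBSF and 1.23 ± 0.24 CPM in Ctrl ALBSF (SD, n = 4 each). Its log2 fold change was -0.52 ± 0.28 (SE; edgeR adjusted p = 0.595). Dscaml1 was the 1 member whose libraries did not overlap, as was true of 5.74% of the tested genes. The sidekicks had values of similar size, -0.41 ± 0.25 for Sdk1 and -0.40 ± 0.23 for Sdk2 (edgeR adjusted p = 0.657 and 0.627). Iglon5 had -0.35 ± 0.20 (adjusted p = 0.619).

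The more abundant members had narrower intervals in that comparison. Ntm had a log2 fold change of 0.09 with a 95% interval of -0.12 to 0.30, and Dscam had -0.08 with an interval of -0.25 to 0.08. Opcml had 0.10 (interval -0.09 to 0.30), Negr1 -0.04 (interval -0.26 to 0.19) and Kirrel3 -0.15 (interval -0.46 to 0.17). Lsamp averaged 121 ± 17.2 CPM in embWPC ALBSF and 106 ± 5.66 CPM in Ctrl ALBSF (SD, n = 4 each), a log2 fold change of 0.19 with an interval of -0.03 to 0.40. Over the members, 3 fold changes were positive and 7 negative, with a median of -0.12, against -0.01 over all tested genes. This comparison and that of the control territories share the Ctrl ALBSF libraries, so the signs of their fold changes are not independent.

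Within embWPC ALBSF, Lsamp and Negr1 ordered the libraries alike, with library 3 highest, then 1, 2 and 4. Lsamp had 139, 131, 110.0 and 103 CPM in that order, and Negr1 had 136, 116, 108 and 93.5 CPM. The summed level of the 10 astrocyte and radial glia markers had the same order, with 10376 CPM in library 3, 8585 in library 1, 5618 in library 2 and 5385 in library 4. Most of that sum was Fabp7, a lipid-binding protein of radial glia, with 4714 to 9718 CPM in embWPC ALBSF, 5762 to 7356 CPM in Ctrl PMBSF and 7092 to 10900 CPM in Ctrl ALBSF. The marker sum was 6290 to 7990 CPM in Ctrl PMBSF and 7820 to 11500 CPM in Ctrl ALBSF, and these ranges overlapped. The shared order was not seen within either control group. In Ctrl PMBSF the marker sum was highest in library 2, and Lsamp and Negr1 in library 3, while library 1 was lowest for all 3. In Ctrl ALBSF the marker sum and Negr1 were highest in library 3, and Lsamp in library 1. Between the control territories, Lsamp averaged 129.5 CPM in Ctrl PMBSF and 106.2 CPM in Ctrl ALBSF. Negr1 averaged 109.1 CPM in Ctrl PMBSF and 116.7 CPM in Ctrl ALBSF. None of the 10 markers was called in any of the 3 comparisons without the block. With the block, Sox9 was lower in Ctrl PMBSF than in Ctrl ALBSF (log2 fold change -0.31 ± 0.07, edgeR adjusted p = 0.0270). The markers' part in the levels of Lsamp and Negr1 was not tested.

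**Figure D5:**
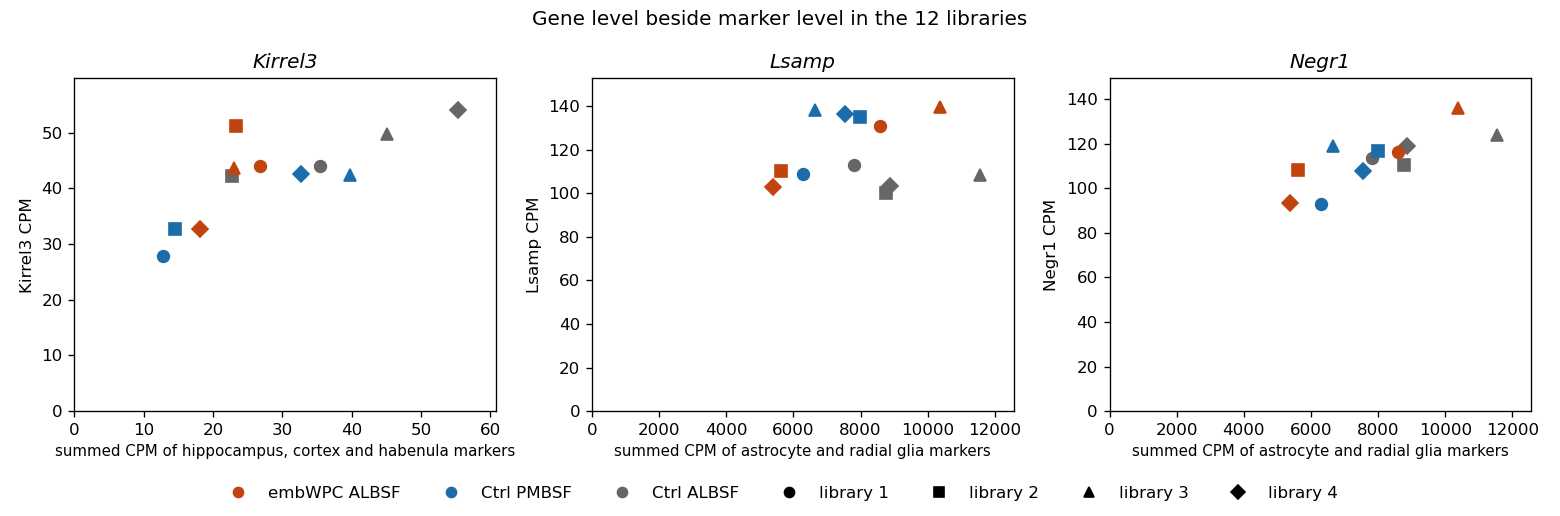
CPM of Kirrel3 against the summed CPM of hippocampus, cortex and habenula markers, and CPM of Lsamp and Negr1 against the summed CPM of astrocyte and radial glia markers, with 1 point per library, color for the group and shape for the library number. Ctrl PMBSF libraries 1 and 2 have the lowest Kirrel3 and the lowest marker sums (12.8 and 14.5 CPM). The 4 embWPC ALBSF libraries have the same order for Lsamp, Negr1 and the glial markers, and the libraries of each control group do not.

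The third comparison set the upper-lip territory of embWPC pups beside the whisker pad territory of control pups. None of the 10 members was called by edgeR, DESeq2 or limma voom, and 0 reached an unadjusted p under 0.05, against 0.00571% called and 9.47% at the unadjusted level among tested genes. For 0 of the 10 members did the libraries of these groups stay apart, against 4.73% of the tested genes. Kirrel3 averaged 42.9 ± 7.60 CPM in embWPC ALBSF and 36.4 ± 7.37 CPM in Ctrl PMBSF (SD, n = 4 each), a log2 fold change of 0.24 with a 95% interval of -0.08 to 0.56. Dscam averaged 32.2 ± 2.01 CPM in embWPC ALBSF and 29.4 ± 2.44 CPM in Ctrl PMBSF, a log2 fold change of 0.13 with an interval of -0.03 to 0.30. Dscaml1 had -0.49 ± 0.28 (SE; edgeR adjusted p = 0.596). The other 7 fold changes lay between -0.12 for Opcml and 0.21 for Sdk1. Of the 10, 7 were positive, with a median of 0.07 against -0.02 over all tested genes, and on plain library totals 5 means were higher and 5 lower in embWPC ALBSF, with Negr1 and Sdk2 on the other side.

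Set beside the members, 48 other adhesion genes of the immunoglobulin superfamily and of adhesion families with immunoglobulin domains were read from the same fit, and 45 were tested. In Ctrl PMBSF against Ctrl ALBSF, 0 rose and 2 fell, where 0.811% of all tested genes fell. By edgeR 15 of the 45 had an unadjusted p under 0.05, against 11.8% of all tested genes. Thy1, a GPI-anchored surface protein of neurons, had 14.5 ± 2.99 CPM in Ctrl PMBSF and 25.1 ± 3.59 CPM in Ctrl ALBSF (SD, n = 4 each), a log2 fold change of -0.80 ± 0.13 (SE; edgeR adjusted p = 0.00647). Lrfn5, a synaptic adhesion protein, had 69.2 ± 7.05 CPM in Ctrl PMBSF and 92.1 ± 7.44 CPM in Ctrl ALBSF, a log2 fold change of -0.41 ± 0.09 (edgeR adjusted p = 0.0333). The median log2 fold change of the 45 was -0.17, and 8 were positive. With the replicate number as a block, 1 rose and 4 fell, against 5.04% of all tested genes called. Ncam2, a homophilic adhesion protein, rose by 0.30 ± 0.07 on the log2 scale (edgeR adjusted p = 0.0229). Thy1 and Lrfn5 remained lower in Ctrl PMBSF, joined by Mdga2, a GPI-anchored brake on synaptic adhesion, at -0.27 ± 0.06 (adjusted p = 0.0246) and Lrfn4, a relative of Lrfn5, at -0.26 ± 0.06 (adjusted p = 0.0342).

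In embWPC ALBSF against Ctrl ALBSF, edgeR called 0 of these 45 genes, and 9 had an unadjusted p under 0.05, against 9.22% of all tested genes. The 4 with the smallest p were Thy1 at -0.62 ± 0.13 (edgeR adjusted p = 0.105), Igsf3 at -0.40 ± 0.09 (adjusted p = 0.108), Amigo3 at 1.12 ± 0.40 (adjusted p = 0.392) and Ncam2 at 0.24 ± 0.09 (adjusted p = 0.439). Amigo3 was scarce, with 1.37 ± 0.78 CPM in embWPC ALBSF and 0.63 ± 0.11 CPM in Ctrl ALBSF (SD, n = 4 each). Thy1 had 16.1, 15.4, 18.0 and 16.03 CPM in embWPC ALBSF libraries 1 to 4, against 21.2, 25.1, 29.9 and 24.2 CPM in Ctrl ALBSF. These libraries did not overlap, as was true of 5.74% of all tested genes, and Thy1 was looked at for its small p. The median over the 45 was -0.11, with 11 positive. In embWPC ALBSF against Ctrl PMBSF, 0 were called, 6 had an unadjusted p under 0.05, against 9.47% of all tested genes, and the median was 0.01.

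The 18 partner genes were all tested. They code for scaffolds that bind the tails of sidekicks, Dscams and Kirrel proteins, for partners of Dscam in netrin signalling, for the sheddase Adam10, for the Negr1 partner Fgfr2 and for the enzyme that attaches GPI anchors. By edgeR 0 of the 18 were called in any of the 3 comparisons or with the replicate block in the controls. In the order given above, 1, 1 and 2 had an unadjusted p under 0.05, against 11.8%, 9.22% and 9.47% of all tested genes. Medians were 0.03, 0.03 and 0.04. The smallest unadjusted p between control territories was that of Ntn1, the netrin ligand, at 1.10 ± 0.47 CPM in Ctrl PMBSF and 1.72 ± 0.32 CPM in Ctrl ALBSF (SD, n = 4 each; edgeR adjusted p = 0.390).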

How the data were processed

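The deposited values are raw counts per Ensembl gene and library, made by the authors. The submitters' processing notes and the series design name STAR 2.7.9a for alignment to GRCm39, featureCounts (Subread 2.0.1) for counting against Ensembl release 104, FastQC 0.11.9 for quality and SAMtools 1.15; mm10 is also listed. Strand and multimapping settings are not given in the sources used here. Symbols, positions and union exon lengths came from GENCODE mouse release 39, which held 54749 of the 55359 genes.

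The 12 libraries were fitted with edgeR 4.0.16 (quasi-likelihood, group as the only term, filterByExpr by group with a minimum count of 10, TMM) in R 4.3.3. P values were Benjamini-Hochberg adjusted over 17501 genes and called under 0.05. The biological coefficient of variation was 15.8%. Alternatives used DESeq2 1.42.0, limma 3.58.1 voom, RLE factors, no filter, the 8 libraries of the groups compared, a replicate block, and each library left out. The script was tested on simulated counts. SD is over the 4 libraries of a group and SE is that of the fit. No 2 libraries were alike within sampling noise, with a lowest chi-square per degree of freedom of 14. The labels do not say whether pools came from separate litters, so p values set group differences against the spread between these pools.

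Same-numbered control libraries correlated in their deviations from group means (0.39, 0.20, 0.33 and 0.40, each over 0.1). The pairing comes from this check and from the shared numbers in the labels, which do not explain them. With embWPC ALBSF the same check gave values from -0.15 to 0.05.

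The members, gene lists and tests were chosen with earlier results of these data known. All 10 members are named. From the adhesion and partner lists, called genes and otherwise up to 4 with the smallest p were eligible. From the marker lists, up to 3 of the most abundant were eligible. Marker genes called with the block were named after their values were seen. Values of some single markers are not reported here. Genes of a like pattern were to be named for members called without the block, and there were none.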

Additional observations from a re-analysis of the deposited data

Results flagged for a closer look

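Of 66 groups of 4 values examined, 5 had 1 library that stood apart by Dixon's ratio of the gap to the range, at its 95% critical value, and chance gives about 1 in 20. Lsamp was 109 CPM in Ctrl PMBSF 1, against 135 to 138 CPM in the other 3 Ctrl PMBSF libraries (ratio 0.899). Iglon5 was lowest in the same library, with 2.51 CPM against 3.47 to 3.62 CPM in the others (ratio 0.864). In embWPC ALBSF 4, Iglon5 was 4.45 CPM, against 3.21 to 3.33 CPM in the other 3 (ratio 0.906). The summed level of choroid plexus and ependyma markers was 102 CPM in Ctrl ALBSF 2, against 3.83 to 4.80 CPM in the other Ctrl ALBSF libraries (ratio 0.990). It was 24.2 CPM in Ctrl PMBSF 2, against 3.61 to 4.58 CPM in the other Ctrl PMBSF libraries (ratio 0.953).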

How the results depend on the processing

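Between Ctrl PMBSF and Ctrl ALBSF, edgeR called 284 genes and DESeq2 527. With the replicate block the counts were 857 by edgeR, and, in fits chosen after seeing the data, 796 by DESeq2, 865 by voom, and 979, 536, 378 and 311 by edgeR without both control libraries numbered 1, 2, 3 or 4. Members called were 0 without the block, 1 with it (edgeR or voom), 2 with it in DESeq2 (Kirrel3 and Lsamp), 2 without number 1, 1 without number 2 or 3, and 0 without number 4, where Kirrel3 had an adjusted p of 0.0563. Leaving out single libraries gave 127 to 282 genes and 0 members, with the lowest count without Ctrl ALBSF 3. Between embWPC ALBSF and Ctrl ALBSF, edgeR called 11 genes, DESeq2 181, voom 1, edgeR without a filter 121, with the replicate block 1, and 1 to 37 with single libraries left out, the most without Ctrl PMBSF 1. Between embWPC ALBSF and Ctrl PMBSF, edgeR called 1 gene, DESeq2 74, no filter 72, the replicate block 0, and 1 to 3 with single libraries left out. The cause of these shifts was not tested. Members called stayed at 0 in both embWPC comparisons under every alternative run for them, the replicate block included, where the numbers did not pair the libraries.

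Fold changes near 0 turned sign. Sdk2 in embWPC ALBSF over Ctrl PMBSF was -0.0066 with voom and -0.014 with the replicate block, and -0.13 to 0.20 with single libraries left out. Left-out libraries gave -0.043 to 0.049 for Ntm and -0.34 to 0.12 for Dscaml1 in Ctrl PMBSF over Ctrl ALBSF. With the replicate block Ntm was -0.0040 without number 2 and -0.017 without number 4, and Dscaml1 was 0.0044 without number 1 and 0.047 without number 2. Negr1 gave -0.14 to 0.052 over Ctrl ALBSF and -0.039 to 0.15 over Ctrl PMBSF in embWPC ALBSF. In edgeR's blocked fit of all control libraries, Kirrel3 was the only member called, and without number 1 Lsamp was called as well. Without length correction 5 of 10 places in the order of levels moved: Opcml came 4th, Kirrel3 5th, Dscam 6th, Sdk1 9th and Dscaml1 10th. Counts under 70 limit Sdk1 and Dscaml1, whose intervals are the widest.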
